A study of Mus musculus with 35 samples.

Results

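Interferon-stimulated genes are the genes that cells switch on when an interferon binds its receptor. This set was chosen by name, with earlier results of these data known: 46 genes were listed by symbol and looked up on the array. Of these, 40 were measured by a probe set of their own, out of 19908 genes measured in all. Gbp2, Gbp6, Igtp, Irgm2 and Isg15 were read only by probe sets that also read related genes (Isg15 with Gm9706), and Ifi44 had no listed probe set, so these 6 genes have no value here. The antiviral Ifit, Oas and Mx genes had 9 measured members. The gamma-interferon genes, namely the Gbp and immunity-related GTPases and the immunoproteasome subunits, had 7 measured members: Gbp3, Gbp7, Irgm1, Iigp1, Psmb8, Psmb9 and Psmb10.

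The colon of 35 C57BL/6N mice had been profiled with 1 Affymetrix Mouse Gene 1.0 ST array per mouse, in 7 groups of 5. Conventional wild-type (WT) and Reg3a-transgenic (TG) mice were either untreated or given DSS, dextran sodium sulfate, a polymer that injures the colon lining, at 3% in the drinking water for 5 days, followed by plain water. Germ-free (axenic) mice formed the other 3 groups, all given the same DSS course: recipients of flora from WT donors, recipients of flora from TG donors, both colonised 3 weeks before DSS, and axenic controls. Colons were collected at day 12. Mice are called by the number in their title, or by the whole title where that number is longer. Reg3a encodes a secreted antimicrobial lectin. The sources used here do not give the promoter or species of origin of the transgene, or the sex, cage and batch of the mice. The label of the axenic controls places DSS before a microbial transfer, and it does not state whether these mice had received flora by then. A treatment label also places conventional mice after a microbial transfer; titles and the design text were followed instead. The series title speaks of epithelial cells, but the tissue is labelled colon, and both 6 smooth muscle markers and 10 colon epithelium markers gave signal. Their group means ran from 11.06 to 12.04 and from 11.02 to 12.01 on the log2 scale, which does not compare the amounts of these tissues.

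Type I and type III interferons signal through a complex that includes STAT2 and IRF9, binds the interferon-stimulated response element (ISRE) and switches on antiviral genes that block viral RNA and its translation. Interferon gamma, made mostly by T and natural killer cells, acts on the gamma-activated site (GAS) and raises GTPases that attack vacuoles of intracellular microbes, the immunoproteasome and the peptide transporter that feeds MHC class I. The programs overlap, because many genes respond to both. In the gut, microbial products maintain a basal interferon tone, and inflamed mucosa adds interferon gamma. C57BL/6 mice carry defective Mx1 and Mx2 alleles.

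The promoter sequences of 3 members are shown because they carry the letters of the elements through which these groups of genes are known to be read. Sequences are the 150 bases before the start of the RefSeq gene on mouse build GRCm38.p6. Capitals mark the ISRE letters, searched as GAAA, any 2 bases, GAAA, or the GAS letters TTCNNNGAA, each on both strands. On the other strand the ISRE reads TTTC, any 2 bases, TTTC. The Ifit1 window (chr19:34640739-34640888, + strand) held 2 ISRE matches, beginning 104 and 85 bases before the start. The Irf1 window (chr11:53769864-53770013, + strand) held 1 GAS match at 90 bases and the Psmb8 window (chr17:34198045-34198194, + strand) held 1 at 97 bases.
Ifit1: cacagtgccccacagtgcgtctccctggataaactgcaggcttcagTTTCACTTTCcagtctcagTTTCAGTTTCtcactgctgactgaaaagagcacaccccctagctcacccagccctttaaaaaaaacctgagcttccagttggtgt
Irf1: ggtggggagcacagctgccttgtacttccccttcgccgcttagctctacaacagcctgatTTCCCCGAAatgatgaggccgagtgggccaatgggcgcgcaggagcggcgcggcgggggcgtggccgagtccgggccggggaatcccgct
Psmb8: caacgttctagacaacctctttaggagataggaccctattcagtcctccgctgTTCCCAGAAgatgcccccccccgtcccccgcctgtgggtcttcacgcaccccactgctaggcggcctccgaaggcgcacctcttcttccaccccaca
Over windows of 250 bases before to 50 after the start, 17 of the 33 listed genes with a window held the ISRE letters (51.5%), against 3.44% of all 32851 windows and 3.99% of all 27025 genes with a window. The GAS letters were in 9 of the 33 (27.3%), against 8.30% of all windows and 9.55% of those genes. Among antiviral genes 3 of 6 held the ISRE letters and 1 of 6 the GAS letters; among listed gamma-interferon genes the counts were 6 of 9 and 4 of 9. A match is a description of the letters only, and windows without one, such as those of Oasl2, Tap1 and Irf7, say nothing of the factor.

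All values below are log2 RMA signal, so a difference of 1 is a doubling. A gene was called when limma's adjusted p (Benjamini-Hochberg, over all 19908 genes) was under 0.05, and ± is the SD over 5 mice. In whole colon, more cells of a type and more RNA per cell cannot be told apart. The SD of values within an array ran from 1.64 to 2.03. It was 1.64 to 1.78 in axenic controls and 1.90 to 2.03 in recipients of WT flora. The mean of 7 posterior Hox genes, which mark position along the gut, also differed, at 6.94 to 8.07 in untreated WT mice and 6.26 to 6.73 in DSS-treated WT mice. Conventional groups mixed mice with Xist signal from 4.79 to 11.94, whereas no axenic mouse exceeded 5.24; conventional and axenic groups therefore also differ in Xist.

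Interferon-stimulated genes were higher in DSS-treated than in untreated conventional WT mice. Of the 40 members 17 were higher and 0 lower, against 3.00% of all genes called higher and 5.13% called in either direction. The median change over the members was 0.91, against -0.025 over all genes, and all 40 point estimates were positive. The groups did not overlap for 14 members, against 3.20% of all genes. Antiviral genes gave 3 calls of 9 and gamma-interferon genes 4 of 7.

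Among the antiviral genes the RNA-activated synthetase Oas2 had the smallest adjusted p. Its signal was 6.46, 6.56, 6.61, 6.77 and 6.91 in untreated WT mice and 7.13, 7.81, 7.85, 7.89 and 7.89 after DSS. The groups did not overlap, and mouse 56 was the lowest of the treated mice. The change was 1.05 (SE 0.16, limma adjusted p = 0.00544). Oasl2, a synthetase relative, rose by 1.74 (adjusted p = 0.0185) and Oas3 by 0.85 (adjusted p = 0.0159). Ifit1, which holds back foreign capped RNA, was 6.13, 6.37, 6.48, 6.50 and 7.78 in untreated WT mice and 6.96, 7.74, 8.24, 8.69 and 9.60 after DSS. Untreated mouse 11 overlapped the treated range, and the change of 1.60 did not pass (adjusted p = 0.0732). Ifit2, a partner of Ifit1, gave 1.80 (adjusted p = 0.0632) and Ifit3 gave 0.80 (adjusted p = 0.446), with Ifit3 reaching 9.78 in treated mouse 65 alone and 7.13 to 8.37 in the others. Mx1 was higher in every treated than in every untreated WT mouse, but its change of 0.30 (SE 0.10) did not pass (adjusted p = 0.113). Mx2 stayed between 4.61 and 5.14 in all 35 mice.

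Of the nucleic acid sensors 2 of 5 were called in the same comparison, and of the transcription factors 2 of 4. Zbp1, a sensor of Z-form nucleic acids that can start cell death, was 7.38, 7.53, 7.65, 7.76 and 7.99 in untreated WT mice and 8.61, 9.16, 9.81, 10.37 and 11.02 after DSS. The groups did not overlap, and mouse 52 was highest. The change was 2.13 (SE 0.38, adjusted p = 0.0103), about 4.39-fold. Irf1, the transcription factor that gamma interferon induces, was 8.61 to 9.42 without DSS and 9.70 to 10.73 with it, and rose by 1.1 (adjusted p = 0.0177). Stat2, which carries type I signals, rose by 1.15 (adjusted p = 0.0270) and Ddx58, the RNA sensor RIG-I, by 1.07 (adjusted p = 0.0289). Parp14, an ADP-ribosyltransferase, rose by 1.18 (adjusted p = 0.0220). Usp18, which removes ISG15 from proteins and damps the type I receptor, was 6.42 to 6.81 before and 7.11 to 9.24 after DSS and rose by 1.52 (adjusted p = 0.0487). Irf7, the amplifier of type I interferon production, was 7.95 to 8.79 without DSS and 7.89 to 9.40 with it, and its change of 0.54 did not pass (adjusted p = 0.423). Nor did those of Irf9 at 0.50 (adjusted p = 0.349) or of the sensors Dhx58 at 0.92 (adjusted p = 0.133), Eif2ak2 at 0.60 (adjusted p = 0.222) and Ifih1 at 0.37 (adjusted p = 0.776).

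The gamma-interferon genes with a call were Irgm1, Iigp1, Gbp7 and Psmb8. Iigp1, a GTPase that disrupts parasite vacuoles, was 6.21, 6.28, 6.37, 6.39 and 6.58 in untreated WT mice and 6.41, 8.06, 8.55, 8.83 and 9.23 after DSS. Treated mouse 56 lay inside the untreated range, and the other 4 lay above it. The change was 1.85 (SE 0.42, adjusted p = 0.0313). Irgm1, a regulator of the same GTPases, rose by 1.62 (adjusted p = 0.0185) and Gbp7, a guanylate-binding protein, by 1.14 (adjusted p = 0.0282). Psmb8, an immunoproteasome catalytic subunit, was 6.52, 6.73, 6.86, 7.10 and 7.13 before and 7.46, 7.77, 8.15, 8.68 and 9.31 after DSS, with no overlap, and rose by 1.41 (adjusted p = 0.0249). Tap1, part of the peptide transporter, was 7.45 to 7.70 before and 7.78 to 9.80 after and rose by 1.40 (adjusted p = 0.0317). The remaining calls were Rtp4 at 1.78 (adjusted p = 0.0232), Xaf1, a binding partner of an apoptosis inhibitor, at 0.73 (adjusted p = 0.0122), and Ifi27l2a at 0.90 (adjusted p = 0.0329). Rtp4 was 6.18 to 7.80 without DSS and 7.57 to 9.25 with it, and Ifi27l2a 5.94 to 6.65 and 6.51 to 7.63.

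**Figure D1:**
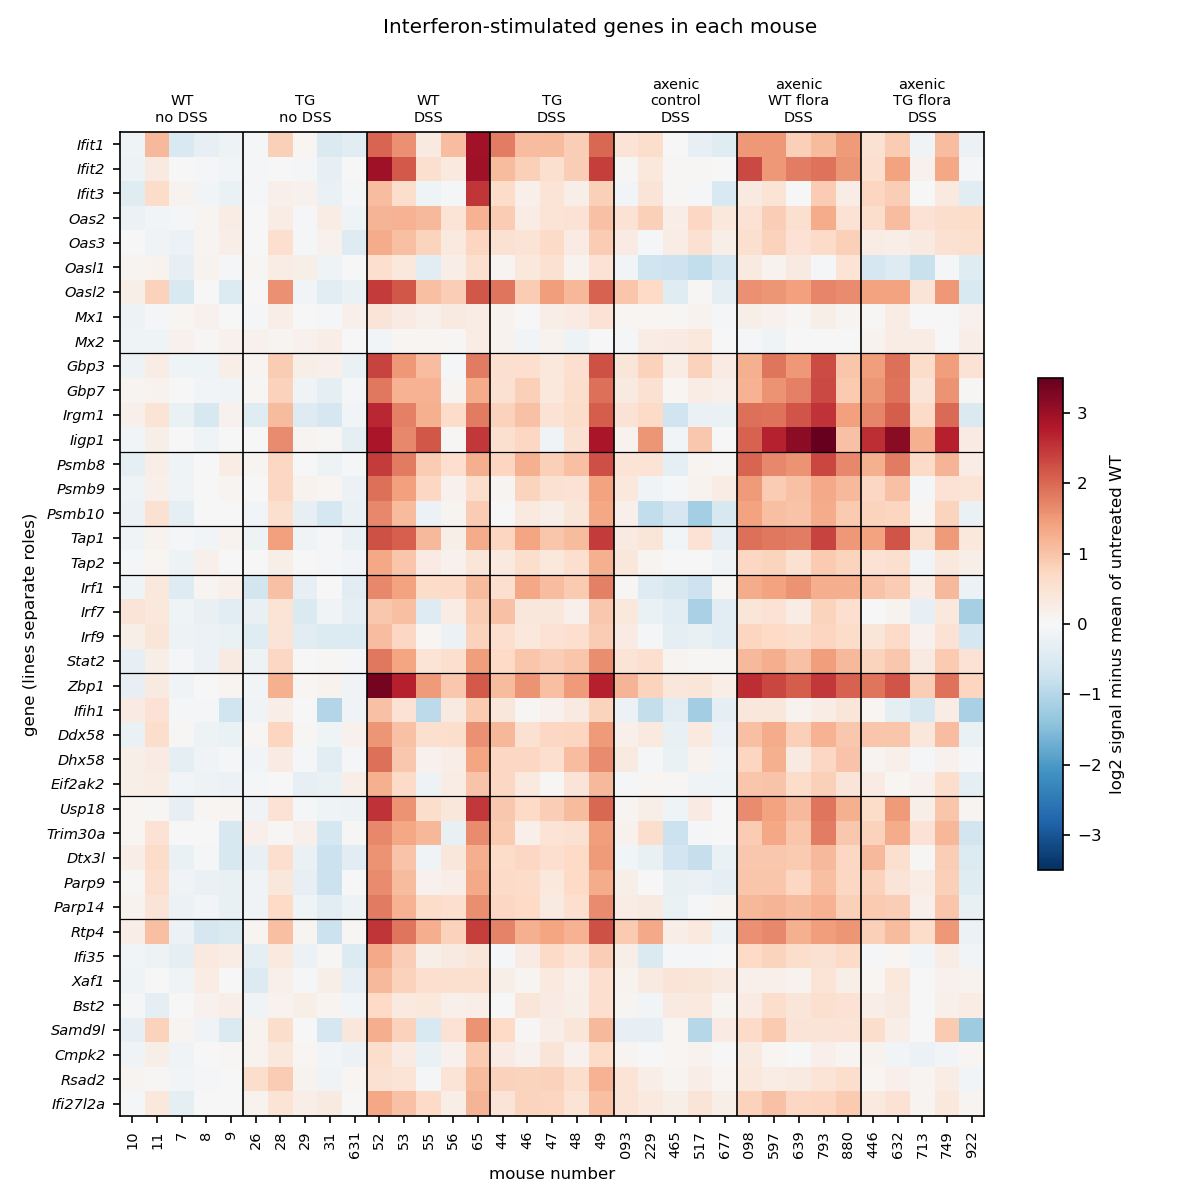
Log2 signal of each of the 40 measured members (rows, grouped by role) in each of the 35 mice (columns, by group and mouse number), as the difference from the mean of untreated WT mice. Red is higher and blue lower. DSS-treated WT mice 52, 53 and 65 and TG mouse 49 are red for most members, as are the 5 recipients of WT flora, and untreated TG mouse 28 stands out from its group.

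The WT count changed with single mice and with a covariate for position along the gut. It was 24 without treated mouse 55, 9 without treated mouse 52, 7 without treated 53, 6 without treated 65 or untreated 10, 5 without untreated 8, 10 without untreated 9 and 3 without untreated 7. The shares of all genes in these fits are not given here, so these counts do not single out the members. With the posterior Hox mean as a covariate, added after seeing the data, 0 members and 7 genes in all were called. The members' median was then 1.61, and 39 of 40 stayed positive. Posterior Hox means did not overlap between untreated and treated WT mice, so position along the gut cannot be told apart from DSS. Without that covariate 31 members had an unadjusted p under 0.05, against 16.6% of all genes. Neutrophil markers were also higher in the treated group, for 4 of 8. Their mean was 6.06 to 6.33 in untreated and 6.67 to 10.13 in treated WT mice. It was highest in mouse 55, which was lowest of its group for 18 of 40 members. Macrophage and monocyte markers were higher for 2 of 6, with a mean of 7.59 to 7.97 before and 7.73 to 9.04 after. T cell markers gave 1 call of 8, with a mean of 5.80 to 6.23 before and 6.09 to 6.43 after, and natural killer markers 1 of 8. At an unadjusted p under 0.05, 4 of 8 T cell markers and all 4 B cell markers were higher and 0 lower, with medians of 0.25 and 1.26. The part of these cells in the members' change was not tested.

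In transgenic mice DSS raised 13 of 40 members and lowered 0, against 3.46% of all genes called higher and 4.55% called in either direction. The median was 0.69, against -0.015 over all genes, and 39 of 40 point estimates were positive. The groups did not overlap for 7 members, against 5.40% of all genes. Antiviral genes gave 2 calls of 9, Ifit1 and Ifit2, and gamma-interferon genes 1 of 7, Psmb8.

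Ifit1 was 6.14, 6.26, 6.60, 6.73 and 7.49 in untreated TG mice and 7.51, 7.72, 7.75, 8.44 and 8.67 after DSS. All treated mice lay above all untreated mice, the nearest pair being untreated mouse 28 and treated mouse 48. It rose by 1.37 (SE 0.28, limma adjusted p = 0.0236), and Ifit2 rose by 1.24 (adjusted p = 0.0353). The smallest adjusted p belonged to Dhx58, the RNA helicase LGP2 that tunes RNA sensing, at 5.96, 6.23, 6.25, 6.30 and 6.61 without DSS and 6.93, 7.06, 7.06, 7.42 and 7.99 with it. These ranges did not overlap, and Dhx58 rose by 1.03 (SE 0.19, adjusted p = 0.0182). Usp18 rose by 1.13 (adjusted p = 0.0224), with untreated mice at 6.53 to 7.21 and treated mice at 7.41 to 8.71. Rtp4 rose by 1.46 (adjusted p = 0.0227), with untreated mice at 6.00 to 7.81 and treated mice at 7.98 to 8.98.

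The transcription factors Irf9 (0.84, adjusted p = 0.0267), Stat2 (0.91, adjusted p = 0.0282) and Irf1 (1.20, adjusted p = 0.0456) rose in TG mice. The first pair belong to the ISRE-binding complex. Dtx3l, a ubiquitin ligase, rose by 1.03 (adjusted p = 0.0356) and its partner Parp9 by 0.89 (adjusted p = 0.0384). Zbp1 rose by 1.35 (adjusted p = 0.0445), Tap2, Tap1's partner in the peptide transporter, by 0.62 (adjusted p = 0.0440) and Psmb8 by 1.12 (adjusted p = 0.0417). Psmb8 was 6.68 to 7.58 without DSS and 7.61 to 9.12 with it. Iigp1 was 6.02, 6.34, 6.42, 6.46 and 8.01 in untreated TG mice and 6.24, 6.90, 6.92, 7.09 and 9.22 after DSS. Its highest values were untreated mouse 28 and treated mouse 49, the groups overlapped, and the change of 0.62 did not pass (SE 0.52, adjusted p = 0.439).

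**Figure D2:**
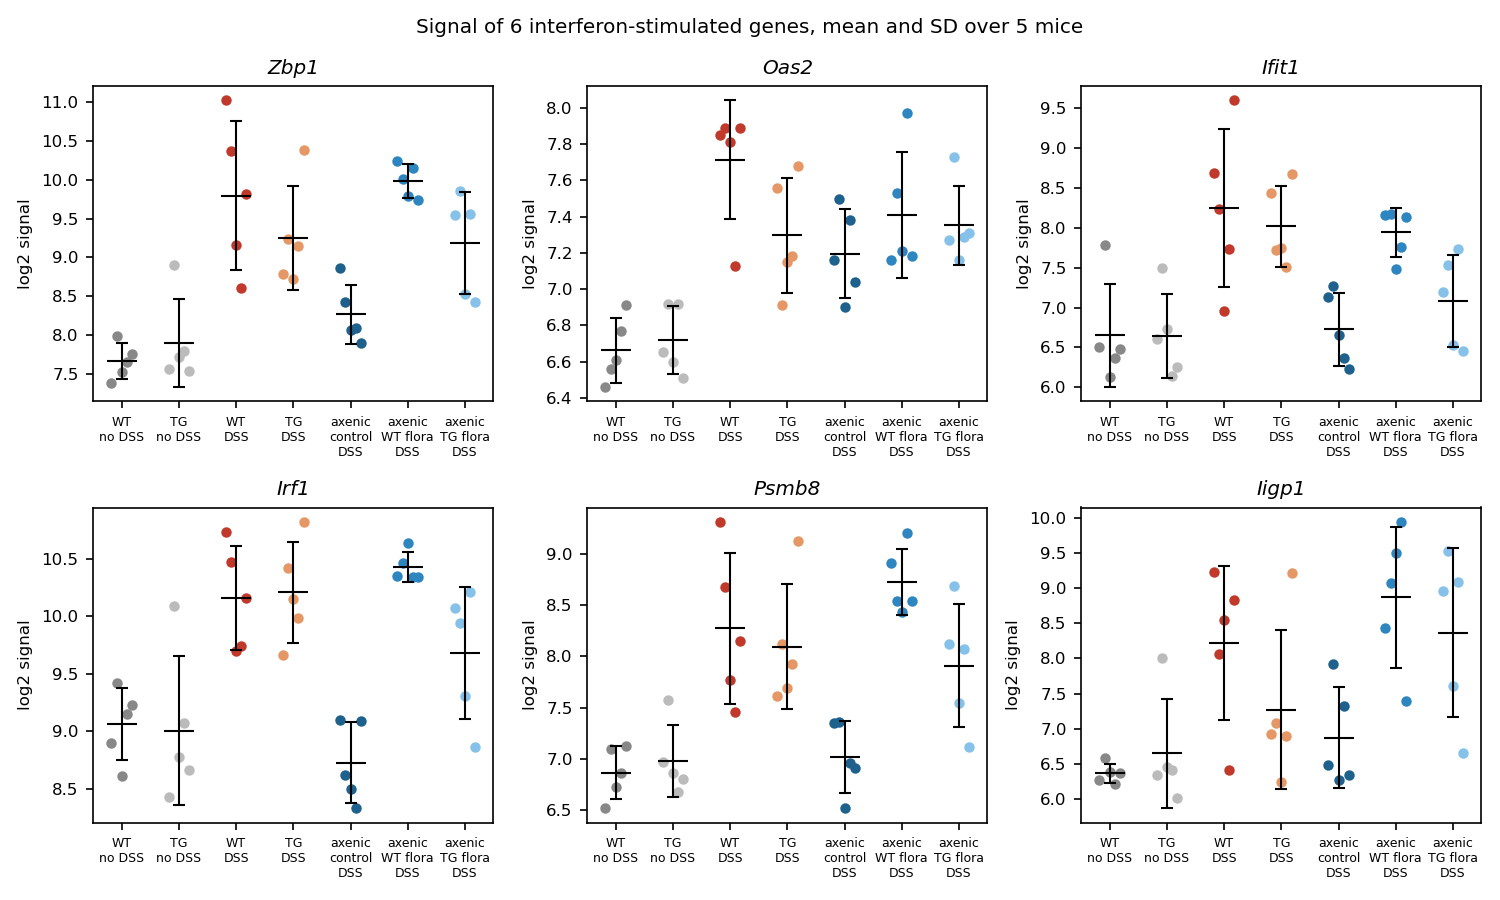
Log2 signal of 6 members in every mouse (points) with the mean and SD of each group of 5 (bars). Zbp1, Oas2, Irf1 and Psmb8 do not overlap between untreated and DSS-treated WT mice, while Iigp1 reaches 8.01 in 1 untreated TG mouse and 9.22 in 1 treated TG mouse.

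The members called in both genotypes were Irf1, Psmb8, Rtp4, Stat2, Usp18 and Zbp1, which is 35.3% of the WT calls and 46.2% of the TG calls. Counts in TG mice also moved with single mice: 0 without untreated mouse 26, 1 without untreated 29 or treated 48, 4 without untreated 31 or ColonBasalTG631, 6 without treated 46 and 8 without treated 44. Within-array SD as a covariate left 1 call, with a median of 0.48, and leaving out arrays of low SD left 4. The shares of all genes in these fits are not given here, so these counts do not single out the members. Limma called 0 of 8 neutrophil markers in TG mice, 1 having an unadjusted p under 0.05, with a mean of 5.90 to 6.14 before and 6.13 to 8.63 after, highest in mouse 49. Macrophage and monocyte markers gave 1 call of 6, with a mean of 7.44 to 7.80 before and 8.07 to 9.14 after. B cell markers gave 1 call of 4, with a median of 1.16. At an unadjusted p under 0.05 all 4 B cell, 4 of 8 T cell and 5 of 6 macrophage and monocyte markers were higher. Of all genes 26.2% had such a p in either direction. The part of these cells in the members' change was not tested.

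Genotype itself gave no call among the members. Without DSS 0 of 40 were called (0.0753% of all genes), and the median difference of TG from WT was 0.04, with 22 of 40 positive. It was -0.09 without TG mouse 28, with 9 of 40 positive. Leaving out any other single mouse gave 0.01 to 0.08. In limma 0 members had an unadjusted p under 0.05, against 5% of all genes. The smallest p belonged to Rsad2, the antiviral enzyme viperin, at 6.40 to 6.57 in WT and 6.36 to 7.36 in TG mice, a difference of 0.32 (SE 0.17, adjusted p = 0.987). Ifi27l2a followed at 0.22, Mx2 at 0.12 and Irf9 at -0.25, all with an adjusted p of 0.987. Under DSS 0 of 40 were called (0.00502% of all genes) and 2 had an unadjusted p under 0.05, against 5.17% of all genes. Xaf1 was 7.32 to 7.89 in WT and 6.85 to 7.36 in TG mice, a difference of -0.44 (SE 0.14, adjusted p = 0.578). Oas2 differed by -0.42 (SE 0.19, adjusted p = 0.953), Rsad2 by 0.33 and Oas3 by -0.28. The median difference over members was -0.19. It was -0.04 without WT mouse 52, -0.08 without WT mouse 65, -0.36 without WT mouse 56, -0.35 without TG mouse 49 and -0.80 with the posterior Hox covariate. With array weights 5 members were called, in a fit whose share of all genes is not given here.

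The difference between the DSS effects of the genotypes was tested directly. Of the 40 members 0 were called (0.156% of all genes) and 1 had an unadjusted p under 0.05, against 7.42% of all genes. That was Oas2, for which the TG effect was smaller by an interaction of -0.48 (SE 0.23, adjusted p = 0.661). Iigp1 gave -1.23 (SE 0.72, adjusted p = 0.809), Xaf1 -0.35 (adjusted p = 0.794) and Ifi27l2a -0.42 (adjusted p = 0.830). The median over members was -0.26. It was -0.09 without untreated TG mouse 28, -0.13 without treated WT mouse 52, -0.15 without treated WT mouse 65, -0.39 without treated WT mouse 56 and -0.41 without treated TG mouse 49. Array weights gave 1 call, in a fit whose share of all genes is not given here, and a median of -0.52. The difference in calls between genotypes, 17 against 13, is thus not a tested difference.

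Flora from WT donors came with higher interferon-stimulated genes in axenic mice under DSS. Of the 40 members 33 were higher and 0 lower than in axenic controls, but 67.3% of all genes were called in this comparison and 32.1% of all genes were called higher. The median over members was 0.96, against -0.034 over all genes. The groups did not overlap for 27 members, against 20.1% of all genes. All 7 gamma-interferon genes were called, with a median of 1.70, and 5 of 9 antiviral genes, with a median of 0.43.

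Psmb8 was 6.52, 6.91, 6.96, 7.35 and 7.36 in axenic controls and 8.43, 8.54, 8.54, 8.91 and 9.20 in recipients of WT flora. Every recipient exceeded every control. It rose by 1.70 (SE 0.19, limma adjusted p = 0.000172), and the other immunoproteasome subunits, Psmb10 by 1.73 (adjusted p = 0.000244) and Psmb9 by 1.05 (adjusted p = 0.000263). Irgm1 was 6.79, 7.25, 7.27, 7.99 and 8.16 in controls and 8.93, 9.40, 9.41, 9.69 and 10.03 in recipients, again without overlap. Irgm1 rose by 2.0 (adjusted p = 0.000354) and Iigp1 by 2.0 (adjusted p = 0.00378), Gbp7 by 1.29 (adjusted p = 0.000969) and Gbp3 by 1.05 (adjusted p = 0.00248). Iigp1 overlapped: it was 6.28 to 7.92 in controls and 7.39 to 9.94 in recipients. Tap1 rose by 1.71 (adjusted p = 0.000157), with controls at 7.29 to 8.09 and recipients at 9.09 to 9.94, and Tap2 by 0.69 (adjusted p = 0.000697).

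The antiviral genes were split in this comparison. Ifit2 was 5.36, 5.38, 5.39, 5.39 and 5.71 in axenic controls and 6.85, 6.88, 7.12, 7.25 and 7.64 in recipients of WT flora. The groups were far apart, and Ifit2 had the smallest adjusted p of any member, with a rise of 1.70 (SE 0.15, adjusted p = 6.28e-05). Ifit1 rose by 1.21 (adjusted p = 0.00107), Oasl2 by 1.40 (adjusted p = 0.000988) and Oasl1, which holds back Irf7 translation, by 0.83 (adjusted p = 0.00106). Oas3, named here outside the rule for named genes, rose by 0.43 (adjusted p = 0.00677). Oas2 was 6.90, 7.04, 7.16, 7.38 and 7.50 in controls and 7.16, 7.18, 7.21, 7.53 and 7.97 in recipients, and its 0.21 did not pass (adjusted p = 0.278). Ifit3 gave 0.43 (adjusted p = 0.0685), Mx1 0.09 and Mx2 -0.22.

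Of the regulators, Irf1 rose by 1.70 (adjusted p = 7.75e-05), Stat2 by 0.96 (adjusted p = 0.000390) and Irf9 by 0.84 (adjusted p = 0.000452). Irf1 was 8.33 to 9.10 in controls and 10.34 to 10.64 in recipients. Zbp1 rose by 1.72 (adjusted p = 0.000130), with controls at 7.90 to 8.86 and recipients at 9.74 to 10.24. The RNA sensors Ddx58 (0.99, adjusted p = 0.000491), Ifih1 (0.92, adjusted p = 0.00151) and Dhx58 (0.79, adjusted p = 0.00215) rose, as did the translation-blocking kinase Eif2ak2 (0.83, adjusted p = 0.000327).

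In the ISG15 and ubiquitin pathway, Usp18 rose by 1.37 (adjusted p = 0.000134), Dtx3l by 1.34 (adjusted p = 0.000145), Trim30a by 1.20 (adjusted p = 0.00180), Parp14 by 1.02 (adjusted p = 0.000202) and Parp9 by 1.02 (adjusted p = 0.000204). Usp18 was 6.57 to 6.99 in controls and 7.84 to 8.57 in recipients. Rtp4 rose by 0.97 (adjusted p = 0.00496), Samd9l, an inhibitor of viral translation, by 0.83 (adjusted p = 0.00495), Ifi35 by 0.74 (adjusted p = 0.000670) and Ifi27l2a by 0.51 (adjusted p = 0.00107). The members without a call were Cmpk2, Ifit3, Mx1, Mx2, Oas2, Rsad2 and Xaf1.

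With within-array SD as a covariate, 0 members and 1 gene in all were called, and the members' median was 0.42 with 36 of 40 positive; 35 members had an unadjusted p under 0.05 without it, against 71.2% of all genes. Array SD did not overlap between these groups, so it cannot be told apart from the flora. Quantile normalization gave 27 members and 6637 genes. Of all genes 32.1% were called higher and 35.2% lower, which is the background for the cell markers. Macrophage and monocyte markers were higher for 4 of 6 and lower for 1. Their mean was 7.55 to 8.82 in controls and 8.63 to 9.65 in recipients. T cell markers were higher for 2 of 8 and lower for 1, and natural killer markers higher for 2 of 8 and lower for 3. Plasmacytoid dendritic cell markers were higher for 2 of 6 and lower for 2. Neutrophil markers were higher for 3 of 8, and all 4 pancreatic acinar markers were higher, with a mean of 6.50 to 8.89 in controls and 7.18 to 11.27 in recipients. Plasma cell markers were higher for 5 of 6 (median 0.76), B cell markers for 3 of 4 (median 1.36) and colon epithelium markers for 5 of 10 (median 0.83). The part of these cells in the members' change was not tested.

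**Figure D3:**
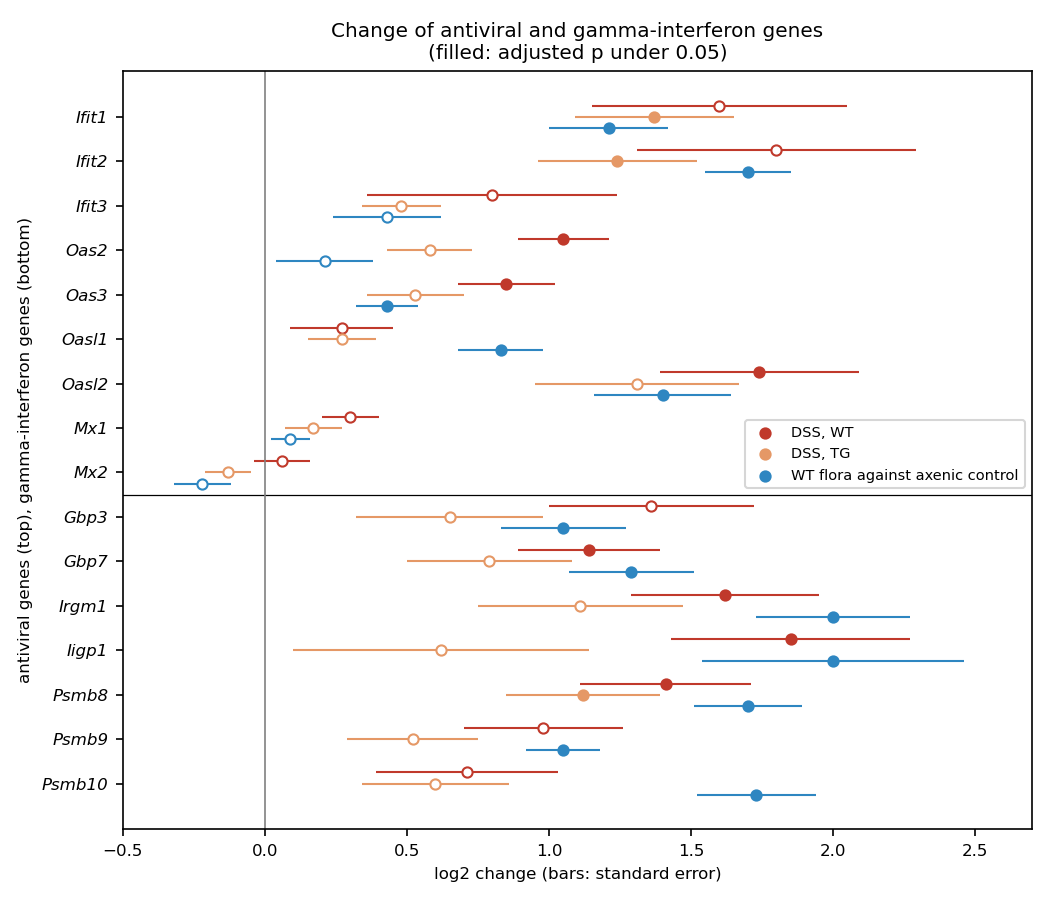
Log2 change of the 9 antiviral genes (top) and 7 gamma-interferon genes (bottom) for DSS in WT mice, DSS in TG mice and WT flora against axenic controls. Points are limma estimates, bars are SE, and filled points passed an adjusted p under 0.05. All 7 gamma-interferon genes are filled for WT flora, and no point of Mx1, from 0.09 to 0.30, or of Mx2, from -0.22 to 0.06, is filled.

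Recipients of TG flora lay between. Against axenic controls 0 of 40 members were called (0.337% of all genes), the median was 0.37, and 15 had an unadjusted p under 0.05 in limma, against 18.1% of all genes, among them all 7 gamma-interferon genes and 0 of 9 antiviral genes. Psmb10 was 8.85, 9.14, 9.82, 9.86 and 9.87 in TG flora recipients, a difference of 1.02 (SE 0.27, adjusted p = 0.125), beside 1.73 for WT flora; both comparisons use the same controls. Irf1 gave 0.95 (adjusted p = 0.133), Psmb8 0.89 (adjusted p = 0.153) and Tap1 1.02 (adjusted p = 0.155). Mouse ColonAXDSSTG922 was the lowest of its group for 27 of 40 members and had the lowest array SD of the group, 1.66. Without it 19 members were called, among 26.7% of all genes, and array weights gave 20, among 33.4%. With within-array SD as a covariate the members' median was 0.10, with 25 of 40 positive. Neutrophil markers were called higher for 4 of 8, with a median of 2.80, and 5 of 6 macrophage and monocyte markers were higher at an unadjusted p under 0.05. The part of these cells was not tested.

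Compared directly, TG flora recipients had 0 of 40 members called against WT flora recipients (0% of all genes), though 26 had an unadjusted p under 0.05, against 34.4% of all genes. Of the 40 estimates 1 was positive, and the median was -0.56 against -0.001 over all genes. Ifi35 was 7.58, 7.59, 7.60, 7.74 and 7.93 with TG flora and 8.21, 8.30, 8.35, 8.38 and 8.46 with WT flora. The groups did not overlap, and the difference was -0.65 (SE 0.09, adjusted p = 0.0695). Ifi27l2a gave -0.55, Oasl1 -0.70 and Dhx58 -0.74, each with an adjusted p of 0.0695. Without TG flora mouse ColonAXDSSTG749, 20 members were called, 1 of them higher, among 23.6% of all genes, and without WT flora mouse ColonAXDSSWT793 there were 2, among 0.748%. Array weights gave 18 calls, 1 of them higher, among 24.5% of all genes. With within-array SD as a covariate the median was -0.18, with 13 of 40 positive. Without TG flora mouse ColonAXDSSTG922 it was -0.39. All 6 smooth muscle markers, with a median of -0.87, and 5 of 10 colon epithelium markers, with a median of -0.25, were lower with TG flora at an unadjusted p under 0.05. The part of these cells was not tested.

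Conventional WT mice were set against axenic controls, both under DSS, a comparison in which housing and flora cannot be told apart. Xist also differed, at 4.79 to 11.19 in the conventional mice and 4.84 to 5.24 in the controls. No Xist covariate was fitted here. Irf1 was the 1 member called of 40, against 0.598% of all genes called higher and 0.638% in either direction. It was 9.70, 9.74, 10.16, 10.47 and 10.73 in conventional mice and 8.33, 8.50, 8.62, 9.09 and 9.10 in controls, without overlap, a rise of 1.43 (SE 0.23, limma adjusted p = 0.0216). The median was 0.91, and 35 members had an unadjusted p under 0.05, against 30.3% of all genes. Parp14 gave 1.1 (adjusted p = 0.0682), Irgm1 1.62 (adjusted p = 0.0729) and Ddx58 0.99 (adjusted p = 0.0762). Without conventional mouse 55, 34 members were called, and without mouse 56, 6. Leaving out conventional mouse 52, 53 or 65, or control ColonAXDSSCT229, ColonAXDSSCT465 or ColonAXDSSCT517, left 0. The shares of all genes in these leave-one-out fits are not given here, so the counts do not single out the members. The mean of probe sets also left 0. Irf1 is the only member with more than 1 probe set, and the probe set of highest mean signal was used. The posterior Hox covariate gave 24, among 17.3% of all genes and with a median of 1.67. The within-array SD covariate gave 0, among 0.121% of all genes and with a median of 0.38.

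Set side by side per mouse, the antiviral and gamma-interferon genes moved by different amounts in different groups. For each mouse the difference from the mean of untreated WT mice was averaged over the 9 antiviral and over the 7 gamma-interferon genes. The antiviral mean was 0.94 ± 0.52 and the gamma-interferon mean 1.29 ± 0.74 in DSS-treated WT mice, and 0.70 ± 0.29 and 0.86 ± 0.67 in treated TG mice. In recipients of WT flora they were 0.76 ± 0.10 and 1.68 ± 0.39, in recipients of TG flora 0.35 ± 0.30 and 1.07 ± 0.71, and in axenic controls 0.08 ± 0.18 and 0.14 ± 0.26.

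The antiviral minus gamma-interferon difference was below 0 in every one of the 10 flora recipients, from -1.38 to -0.39 with WT flora and from -1.15 to -0.12 with TG flora. In conventional mice under DSS it lay on either side of 0, from -0.92 to 0.17 in WT and from -0.88 to 0.33 in TG mice, and in axenic controls from -0.16 to 0.18. Mx1 and Mx2, whose probe sets stayed low throughout, pull the antiviral mean toward 0. Without them, an alternative chosen after seeing their values, the antiviral mean of WT flora recipients was 0.96, still under their gamma-interferon mean of 1.68. In DSS-treated WT and TG mice Mx1 and Mx2 also lower the antiviral mean. The smaller mean gaps there, -0.35 in WT and -0.16 in TG mice, cannot be told apart from the pull of these genes. No test was made of these means.

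**Figure D4:**
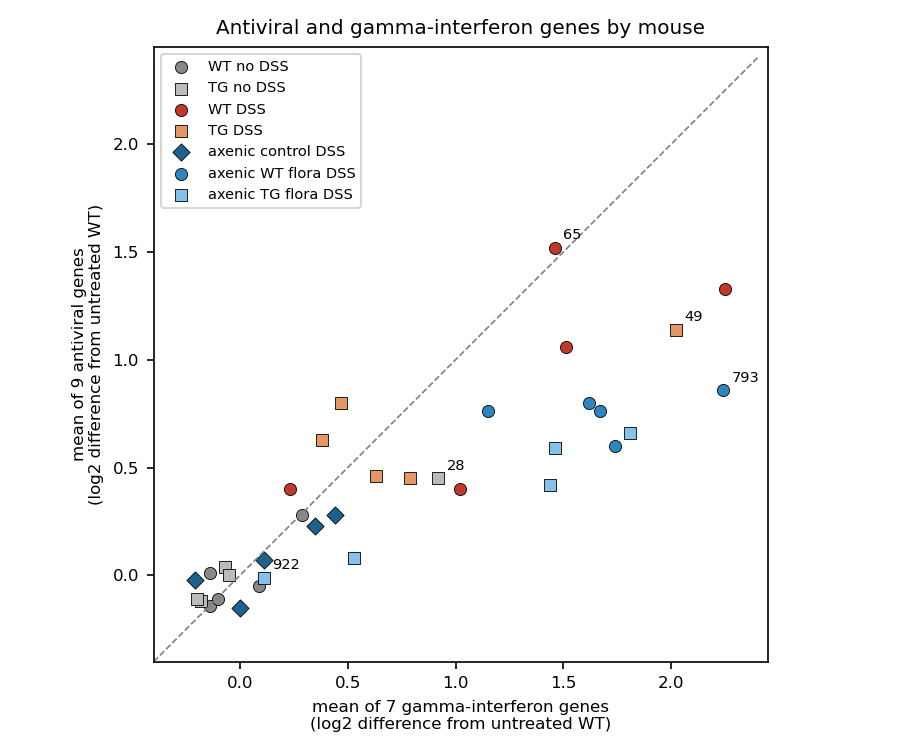
Mean log2 difference from untreated WT mice over 9 antiviral genes (vertical) against 7 gamma-interferon genes (horizontal), 1 point per mouse, with the dashed line marking equal values. All 10 flora recipients lie below the line, mouse 65 lies just above it at 1.52 and 1.46, and mouse 28 is the untreated mouse with the highest values, 0.45 and 0.92.

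Within groups, single mice were high or low for many members at once. The median SD over members was 0.66 in DSS-treated WT mice, against 0.27 over all genes, and 0.25 against 0.20 in untreated WT mice. Treated WT mouse 52 was highest of its group for 31 of 40 members and all 7 gamma-interferon genes, and treated TG mouse 49 for 37 of 40. Mouse 49 also had the highest mean of neutrophil, macrophage, T cell and B cell markers in its group, whereas in WT mice the neutrophil and macrophage means were highest in mouse 55, which was highest for 0 members. Untreated TG mouse 28 was highest for 35 of 40, with Tap1 at 9.0 against 7.35 to 7.50 in the rest of its group. Macrophage and monocyte markers were highest in mouse 29 of that group and neutrophil markers in mouse 26. In recipients of WT flora, mouse ColonAXDSSWT793 was highest for 21 members and for the neutrophil, macrophage and T cell means. The part of these cells was not tested.

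No ligand gene was called higher in the comparisons in which the members were. Of 15 measured, 0 were called higher by limma in WT mice under DSS, in TG mice under DSS or in WT flora recipients. In the last comparison 12 were called lower, as were 35.2% of all genes. At an unadjusted p under 0.05, 0, 1 and 0 were higher and 0, 5 and 13 lower in these comparisons. Of all genes 16.6%, 26.2% and 71.2% had such a p in either direction. The Ifna genes, and Ifnl2 with its relative Ifnl3, are near-identical copies whose probes may read each other. Ifng, the gamma interferon gene, averaged 6.18 ± 0.16 in untreated and 6.32 ± 0.22 in treated WT mice, a change of 0.14 (limma adjusted p = 0.773). It averaged 6.47 ± 0.74 in treated TG mice, where 1 mouse reached 7.78, and 6.68 ± 0.62 in WT flora recipients. Ifnb1 stayed between 4.92 and 5.76 in all mice. Array medians ran from 6.65 to 6.95, above every Ifnb1 value and above the Ifng means of the conventional groups. At such low signal a missing call does not show that a ligand was unchanged. Among ligands lower with WT flora were Ifna5 (-1.17, adjusted p = 0.000462), Il27 (-0.62, adjusted p = 0.000670) and Ifnl2 (-0.78, adjusted p = 0.00130).

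Receptors and JAK-STAT genes gave 1 call of 16 in WT mice under DSS, the type I receptor subunit Ifnar2, at 1.33 (limma adjusted p = 0.00915). In TG mice the call was the signalling adaptor Mavs, at 0.31 (adjusted p = 0.0384). Of all genes 3.00% were called higher in WT and 3.46% in TG mice, so a single call does not single out a list. At an unadjusted limma p under 0.05, 4 of 16 were higher in WT and 8 of 16 in TG mice, and 0 lower. Of all genes 16.6% and 26.2% had such a p in either direction. With WT flora 13 of 16 were higher, against 32.1% of all genes, led by Irf8 at 1.41 (adjusted p = 7.17e-05) and Jak2 at 0.78 (adjusted p = 0.000411). Negative regulators gave 1 call of 12 in WT mice, the cytokine brake Socs3 at 1.60 (adjusted p = 0.00603). In TG mice 0 were called, and Socs3 gave 1.11 (adjusted p = 0.0719). There 4 of 12 had an unadjusted p under 0.05, against 26.2% of all genes. With WT flora 10 of 12 were higher, where the share of all genes was again 32.1%.

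Calls were also made among other interferon-induced genes. Of 49 measured, 21 were higher in WT mice under DSS, with a median of 0.51, 9 in TG mice, with a median of 0.47, and 31 higher and 2 lower with WT flora, with a median of 0.63. Of all genes 3.00%, 3.46% and 32.1% were higher in these comparisons, and 35.2% were lower with WT flora. Values of the T cell attractants Cxcl9 and Cxcl10 ranged widely. Cxcl9 was 6.42 to 7.13 in untreated and 7.26 to 11.48 in treated WT mice, a rise of 3.25 (limma adjusted p = 0.0177), and Cxcl10 rose by 2.30 (adjusted p = 0.0205). Cxcl9 was 9.21 to 12.11 with WT flora against 6.35 to 8.52 in axenic controls. Ido1, a tryptophan-degrading enzyme that gamma interferon induces, rose by 2.85 with WT flora (adjusted p = 0.000302). Nlrc5, a regulator of MHC class I genes, fell by 1.13 (adjusted p = 0.000366).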

How the data were processed

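Colon RNA (200 ng per mouse) of 35 mice was hybridised to 1 array each. The authors normalized the arrays with RMA in Affymetrix Expression Console 1.1, per the submitters' processing notes, and the deposited values are log2 signal. All 35 columns were used. Of 28090 probe sets, 23178 were annotated, 21639 with 1 gene symbol and 1539 with several, which were left out; 21548 matched a RefSeq gene of the GRCm38.p6 build. The probe set of highest mean signal stood for each of 990 genes with more than 1, leaving 19908 genes. Groups came from titles.

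Each comparison was fitted with limma 3.58.1 (R 4.3.3) to its own arrays, two-sided, with Benjamini-Hochberg adjustment over all genes and calls at adjusted p under 0.05. The fit was tested on simulated data first. Mouse numbers are shared by no groups, and each array is a separate mouse; the number of mice limits the precision.

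Called members were named, at most 30 a comparison and smallest p first, or the 4 smallest p where fewer than 4 were called; per-mouse values were given for a set list. Members and lists were chosen with earlier results of these data known. Alternatives were a single model of all arrays, array weights, quantile normalization, a filter at the 40th percentile, the mean of probe sets, a within-array SD covariate and leaving out each mouse. Covariates of 7 posterior Hox genes and of Xist, leaving out 7 arrays with an SD of at most 1.76, and the antiviral mean without Mx1 and Mx2 were chosen after seeing the data. Tables used Python 3.11.15, pandas 2.3.3 and numpy 2.4.6, and figures matplotlib 3.10.9.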

Additional observations from a re-analysis of the deposited data

Results flagged for a closer look

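Single mice stood far from the other 4 of their group for 14 of 119 values tested with Dixon's limit for 5 samples (0.71), where chance flags about 1 in 20. Untreated TG mouse 28 accounted for 8 of them: Oasl2 at 9.77 (others 7.79 to 8.19), Usp18 at 7.21 (6.53 to 6.66), Zbp1 at 8.90 (7.54 to 7.79), Iigp1 at 8.01 (6.02 to 6.46), Tap1 at 9.0 (7.35 to 7.50), its antiviral mean at 0.45 (-0.12 to 0.04), its gamma-interferon mean at 0.92 (-0.20 to -0.05) and the antiviral minus gamma-interferon difference at -0.47 (0.05 to 0.11). Treated TG mouse 49 was high for Iigp1 at 9.22 (6.24 to 7.09) and for the gamma-interferon mean at 2.02 (0.38 to 0.79). Untreated WT mouse 11 was high for Ifit1 at 7.78 (6.13 to 6.50), and untreated WT mouse 7 was low for Usp18 at 6.42 (6.76 to 6.81). Treated WT mouse 56 was low for Oas2 at 7.13 (7.81 to 7.89), and TG flora mouse ColonAXDSSTG632 was high for Oas2 at 7.73 (7.16 to 7.31). Values of 1 mouse share its array and are not independent.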

How the results depend on the processing

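Members called for DSS in WT mice, 17 in the fit reported, numbered 29 in 1 model of all 35 arrays (9.39% of all genes), 38 with array weights (29.4%), 32 with the within-array SD covariate (17.9%) and 0 with the posterior Hox covariate, and 3 to 24 with 1 mouse left out. For DSS in TG mice, 13 became 25 with array weights (16.4%), 7 with the Hox covariate, 1 with the SD covariate, 4 without low-SD arrays and 0 to 19 with 1 mouse left out. Counts of 0 became 5 for genotype under DSS and 1 for the interaction with array weights. For TG against WT flora they became 5 in 1 model of all arrays, 18 with array weights and 0 to 20 with 1 mouse left out. For TG flora against controls they became 2, 20 and 0 to 19 in the same order. For WT flora against controls, 33 became 0 with the SD covariate, where Samd9l gave -0.04 and Irf7 -0.29; under quantile normalization Bst2 gave -0.14. For conventional WT against axenic controls, 1 became 33 in 1 model (22.1% of all genes), 38 with array weights (57.9%), 3 with the 40th percentile filter, 0 with the mean of probe sets, 24 with the Hox covariate, 2 with quantile normalization, 0 with the SD covariate, 0 without low-SD arrays and 0 to 34 with 1 mouse left out. The antiviral mean of WT flora recipients was 0.64 as a median over genes and 0.96 without Mx1 and Mx2, and the antiviral minus gamma-interferon mean of axenic controls was -0.24 with GTPases only. Where no share of all genes is given, a count does not single out the members. The cause of these shifts was not tested. No paired analysis was possible because no mouse number is shared between groups. Arrays give no read depth.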
